A study of Mus musculus with 10 samples.

Results

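The RNAs described here are the mouse small RNAs numbered miR-676 to miR-721, without miR-679 and miR-708, together with miR-805. They were chosen by name alone, whatever the letter or arm and leaving out names that end in a star, which gave 45 names of the 687 measured in the study. Every value came from aliquots of 1 total RNA sample of proliferating C2C12 cells, a mouse myoblast line of strain C3H that received no treatment. TaqMan Array A, a card of stem-loop RT-PCR assays, was run on 4 cards at 500 ng: 2 reverse transcription reactions (RT2 and RT1) on each of 2 days (day 2 and day 1). TaqMan Array B was run on 2 cards with pre-amplification of the cDNA and 2 cards without it. A uParaflo microarray, with 5 spots per probe, was hybridized with 8 µg of the RNA on array 2 and again on array 1. The replicates are technical, so the spread between cards or arrays holds no variation between cultures.

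All 45 RNAs had a microarray probe among 617, while 9 of them had an assay among the 375 of Array A and 31 among the 209 of Array B. No member was on both cards. miR-689, miR-703, miR-705, miR-712 and miR-714 were measured by the microarray only. Mature miRNAs are short RNAs cut by Dicer from a hairpin, and bases 2 to 8 of the mature strand, the seed, pair with target mRNAs. Names in this range entered the mouse catalogue together from sequencing of small RNA libraries, and some of them also match other abundant RNAs. miR-720 matches the end of a threonine tRNA, and miR-712 lies in the ribosomal RNA precursor. miR-709 is known in mouse cells as a nuclear RNA that slows the maturation of miR-15a and miR-16-1. In mouse models, miR-696 is known to repress PGC-1α in skeletal muscle.

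The 6 sequences below belong to the members with the lowest cycle threshold (Ct) on Array B and to miR-687, which had the lowest on Array A. They are shown 5′ to 3′ as the array's target sequences, with the seed in capitals, because they are the RNAs that the measurements turn on.
miR-709: gGAGGCAGaggcaggagga
miR-720: aUCUCGCUggggccucca
miR-699: aGGCAGUGcgaccuggcucg
miR-805: gAAUUGAUcaggacauaggg
miR-690: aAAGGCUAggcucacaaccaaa
miR-687: cUAUCCUGgaaugcagcaauga
miR-690 lies at chr16:28599940-28599961 on the minus strand (GRCm38.p6, RefSeq) within the bounds of Fgf12, and miR-687 at chr14:73206808-73206829 on the minus strand within Rb1. The RefSeq gene for miR-709 lies on chromosome 8 within Rfx1. No 2 of these 6 RNAs share a seed. miR-720, of 18 bases, ends in cca, the last 3 bases of a mature tRNA.

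The next 4 sequences belong to the members that passed a test for a different level relative to the U6 control with pre-amplification. They passed in the reported fit, and none of them passed once the cards were paired.
miR-692: aUCUCUUUgagcgccucacuc
miR-704: aGACAUGUgcucugcuccuag
miR-678: gUCUCGGUgcaaggacuggagg
miR-700: cACGCGGGaaccgaguccacc
miR-692 has 3 RefSeq genes, at chr4:125504805-125504825 (plus strand) within Grik3 and the ferritin pseudogene Ftl2-ps, at chr13:74407121-74407141 (plus) within the ferritin pseudogene Ftl1-ps1, and at chr17:6895259-6895279 (minus) within no other gene. miR-704 lies at chr6:47803590-47803610 (minus) within Pdia4, miR-678 at chr10:76207333-76207354 (minus) within Prmt2, and miR-700 at chr4:135416561-135416581 (minus) within Rcan3. Of the 45 members, 33 had a mature RefSeq entry of the same name, and 32 of these held the array's sequence exactly. In all, 36 members had a miRNA gene in RefSeq, and in 31 such a gene lay wholly within another gene's bounds. The mature sequence of miR-718 lies within Irak1 too, although its hairpin reaches past that gene. More than 1 gene was annotated for miR-680, miR-683, miR-684 and miR-692. These RefSeq counts were made over the members only. The shares over all mouse miRNAs were not counted, so they mark no trait of the group.

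The members were shorter and richer in G and C than the mouse probes as a whole. Their median length was 21 bases, against 22 for all 617, and 11 of 45 members (24.4%) had 20 bases or fewer, against 28 of 617 probes (4.54%). Median GC content was 52.4% in the members, against 45.5% over all probes, and reached 85.7% in miR-689. A run of 4 or more G was present in 7 members (15.6%), against 37 probes in all (5.997%). These are descriptions, and the 617 include the members.

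Among the members, miR-699 and miR-721 alone carried a seed found in another mouse probe. How many of all probes share a seed was not counted. miR-699 has the seed of the miR-34 and miR-449 family, regulators of the cell cycle and of ciliated cells, and is identical to miR-449c over the first 9 bases. miR-721 has the seed of the miR-130 and miR-301 family and is identical to miR-130a over the first 9 bases.
miR-699: aGGCAGUGcgaccuggcucg
miR-449c: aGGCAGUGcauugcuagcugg
miR-34a: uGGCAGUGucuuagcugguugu
miR-721: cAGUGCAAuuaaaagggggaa
miR-130a: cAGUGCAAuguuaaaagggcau

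The identity of the sample was checked from miRNAs typical of cell types. miR-206, the muscle miRNA, had a mean Ct of 17.6 with pre-amplification and 25.9 without, and signals of 5499 on array 2 and 3570 on array 1. On Array A the other muscle miRNAs miR-133b and miR-133a had a mean Ct of 28.8 and 30.6, and miR-1 had 35.4, past the limit of 35, with signals of 13.6 on array 2 and 13.3 on array 1. miR-122 (liver), miR-451 (red cells) and the stem cell miRNAs miR-302a, miR-302b, miR-302d and miR-367 were undetermined on all cards, listed as 40. miR-124 (neurons) had a mean Ct of 38.7. miR-223 (neutrophils) had 34.4, within the limit of 35, with signals of 31.3 on array 2 and 23.0 on array 1. The plant control miR159a was undetermined on all 8 cards.

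A Ct is the PCR cycle at which an assay crosses its threshold, so a low Ct marks an abundant RNA. A mean Ct of 35 or less was called detectable. On Array A, 4 of 9 members (44.4%) were detectable, against 48.5% of all assays. On Array B, 17 of 31 members (54.8%) were detectable with pre-amplification, against 52.2% of all assays, and 10 of 31 (32.3%) without it, against 28.7%. On the microarray, where detectable meant a signal of 32 or more on both arrays, 10 of 45 members (22.2%) passed, against 22.2% of all probes. No share of members differed from its background by more than 4.1 percentage points.

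miR-709 was the most abundant member and had the lowest Ct of the 181 mouse miRNAs shared by Array B and the microarray. Its Ct was 15.6 and 16.0 on the pre-amplified cards, against 23.7 and 23.5 on the cards without pre-amplification. miR-720 followed with 18.7 and 19.0 on pre-amplified cards, against 26.3 and 26.4 without pre-amplification, which put it at rank 4 of the 181. miR-699 had a Ct of 18.8 and 19.3 with pre-amplification, against 27.0 and 27.0 without. These were 3 of the 7 most abundant miRNAs of the shared set by Ct without pre-amplification. miR-805 had 19.1 and 19.5 on pre-amplified cards, against 27.2 and 27.0 on the others, at rank 8. miR-690 had 20.4 and 20.9 on pre-amplified cards, against 28.2 and 28.2 on the others, at rank 12. All 10 members detectable without pre-amplification had a lower Ct on both pre-amplified cards than on both other cards, as did 100% of the 60 miRNAs detectable there.

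**Figure D1:**
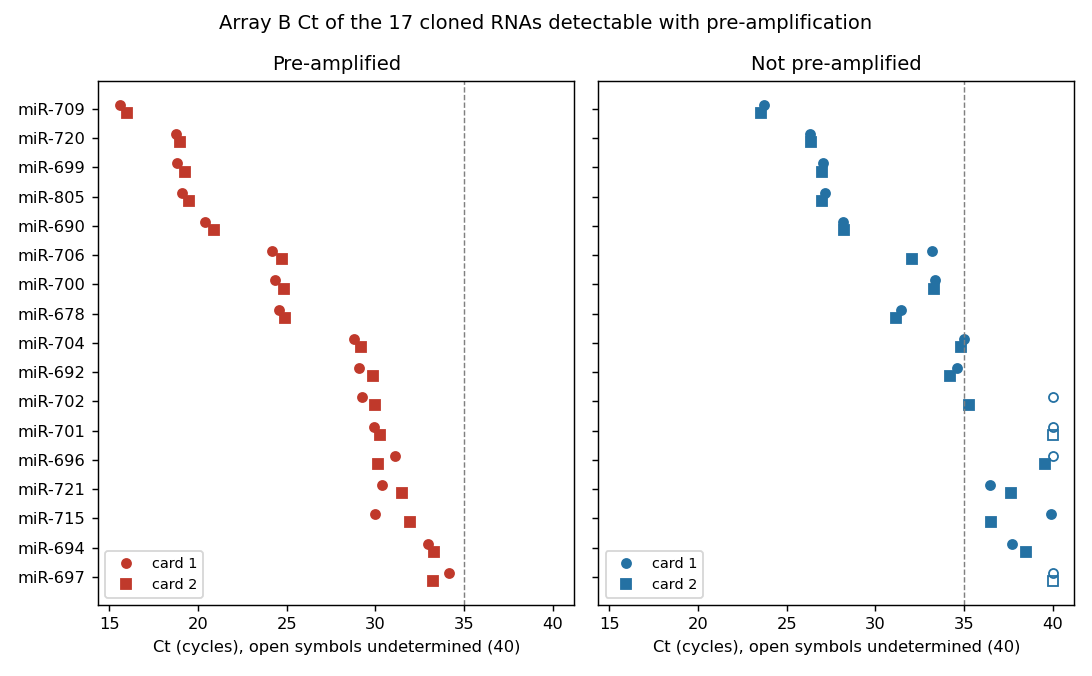
Ct in cycles (horizontal axis) of the 17 members detectable with pre-amplification, in rows, on the 2 pre-amplified cards (left) and the 2 cards without pre-amplification (right). Circles and squares are cards 1 and 2, open symbols are undetermined wells at 40 and the dashed line is the limit of 35. miR-709 to miR-690 form the leading 5 on the left, and the lowest 7 rows lie past the limit on the right.

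The other 5 members detectable without pre-amplification lay between 31.1 and 34.99 on those cards. miR-678 had 24.6 and 24.9 with pre-amplification, against 31.5 and 31.1 without. miR-706 had 24.2 and 24.8 on pre-amplified cards, against 33.2 and 32.1 on the others, the widest gap between cards without pre-amplification among the 10. miR-700 had 24.4 and 24.9 with pre-amplification, against 33.4 and 33.3 without. These 3 were close to each other once pre-amplified, and lay in the order miR-678, miR-706, miR-700 without it. miR-692 had 29.1 and 29.9 on pre-amplified cards, against 34.6 and 34.2 on the others. miR-704 had 28.8 and 29.2 on pre-amplified cards, against 34.99 and 34.8 on the others, and was the member nearest to the limit from below.

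A further 7 of 31 members (22.6%) were detectable only with pre-amplification, against 23.4% of all assays. miR-702 had 29.3 and 29.96 with pre-amplification, against an undetermined well and 35.3 without. miR-701 had 29.9 and 30.3 on pre-amplified cards and was undetermined on both others. miR-696 had 31.1 and 30.2 with pre-amplification, against an undetermined well and 39.5 without. In these 3 members at least 1 card without pre-amplification gave no Ct. miR-721 had 30.4 and 31.5 on pre-amplified cards, against 36.5 and 37.7 on the others. miR-715 had 30.001 and 31.95 on pre-amplified cards, a gap of 1.95 cycles, against 39.9 and 36.5 on the others. miR-694 had 33.0 and 33.3 with pre-amplification, against 37.7 and 38.5 without, and miR-697 had 34.2 and 33.2 with it and was undetermined on both cards without it. The remaining 14 members were undetermined on all 4 cards (45.2%), against 77 of 209 assays (36.8%).

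Whether pre-amplification kept the relative level was tested on ΔCt, the Ct of a miRNA minus that of MammU6 on its card. MammU6 stood at 13.8 and 14.01 on the pre-amplified cards, against 21.7 and 21.7 on the others. The raw Ct of the 10 members differed by a median of -7.68 cycles (pre-amplified minus not), against -7.77 cycles over all 60 miRNAs detectable without pre-amplification. In ΔCt, 4 of 10 members passed an adjusted p of 0.05 (limma across the 60 miRNAs, Benjamini-Hochberg), against 25% of all 60. Of these 4, 3 were higher with pre-amplification, against 15% of the 60, and 1 was lower, against 10%. A higher ΔCt means that the RNA gained less from pre-amplification than MammU6 did.

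miR-692 had a ΔCt of 15.3 and 15.9 on pre-amplified cards, against 12.9 and 12.5 on the others, higher by 2.87 ± 0.29 cycles (SE, adjusted p = 0.0027, limma). miR-704 was higher by 1.88 ± 0.20 cycles (adjusted p = 0.0027) and miR-678 by 1.22 ± 0.20 cycles (adjusted p = 0.0136). miR-700 was lower, with a difference of -0.94 ± 0.20 cycles (adjusted p = 0.0257). These 4 were among the members with the highest Ct, between 31.1 and 34.99 without pre-amplification. The other 6 members did not pass, with ΔCt differences between -0.38 (miR-706) and 0.31 (miR-720). Among them miR-709 differed by -0.08 ± 0.19 cycles and miR-805 by 0.00 ± 0.19 cycles. With the card number as a replicate block, which the study's scheme pairs through shared reverse transcription, none of the 4 passed: the adjusted p was 0.0669 for miR-692 and miR-704, 0.0906 for miR-678 and 0.106 for miR-700, and 4 of all 60 miRNAs passed (6.67%). Without pre-amplified card 1, and likewise without pre-amplified card 2, only miR-692 and miR-704 of the members passed, against 15% and 13.3% of the 60 miRNAs. Without card 2 of those not pre-amplified, miR-706 passed too (-0.92 cycles, adjusted p = 0.0112, limma), as did 49.2% of 65 miRNAs. With the other endogenous controls in place of MammU6, 7 members passed, 6 higher and 1 lower, against 43.3% of the 60 (23 higher and 3 lower, against 9 and 6 with MammU6).

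**Figure D2:**
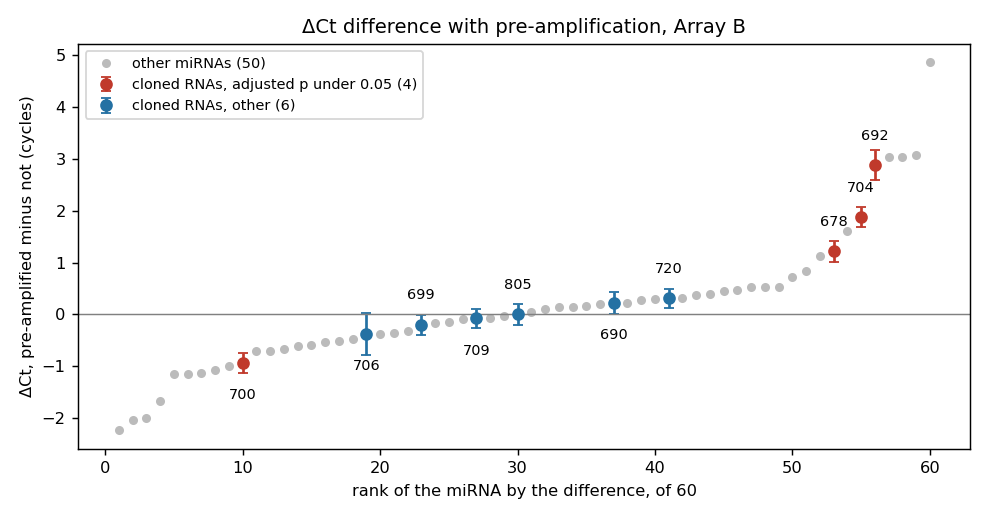
Difference in ΔCt, pre-amplified minus not pre-amplified (vertical axis, cycles), of 60 Array B miRNAs in order of that difference (horizontal axis). Grey points are the 50 other miRNAs; red points are the 4 members with an adjusted p under 0.05 and blue points the other 6, with bars of 1 SE from limma. miR-692 at 2.87 and miR-700 at -0.94 are the ends of the members' range.

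On Array A, miR-687 was the most abundant member and the most even between cards. Its Ct was 29.0 and 29.0 on day 2 and day 1 of RT2, against 29.0 and 28.8 on the same days of RT1, an SD of 0.08 cycles (n = 4 cards). Assays with a mean Ct between 25 and 30 had a median SD of 0.12 cycles. In the same order of days, miR-685 had 31.0 and 30.3 on the RT2 cards, against 30.5 and 31.1 on the RT1 cards. miR-680 had 30.8 and 29.8 on the RT2 cards, against 30.9 and 33.0 on the RT1 cards, with an SD of 1.34 cycles. miR-682 had 32.8 and 30.7 on the RT2 cards, against 31.96 and 30.5 on the RT1 cards, an SD of 1.07 cycles. For miR-680 and miR-682 the SD exceeded the median of 0.51 cycles of assays with a mean Ct between 30 and 35. In Ct the reactions did not overlap for 1 of the 4 detectable members, miR-680, against 29.7% of the 182 detectable miRNAs. In ΔCt they did not overlap for 1 other, miR-687, at 9.41 and 9.36 with RT2 on day 2 and day 1, against 9.21 and 9.25 with RT1, and 36.3% of the 182 did not.

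The Ct of miR-676 was 33.0 on day 2 and undetermined on day 1 with RT2, against undetermined on day 2 and 33.8 on day 1 with RT1. Each reaction gave a Ct under 35 on 1 of its 2 cards. miR-684 had 37.0 with RT2 and 35.3 with RT1 on day 2, and was undetermined on both day 1 cards. miR-677, miR-683 and miR-686 were undetermined on all 4 cards, as were 112 of 375 assays (29.9%).

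**Figure D3:**
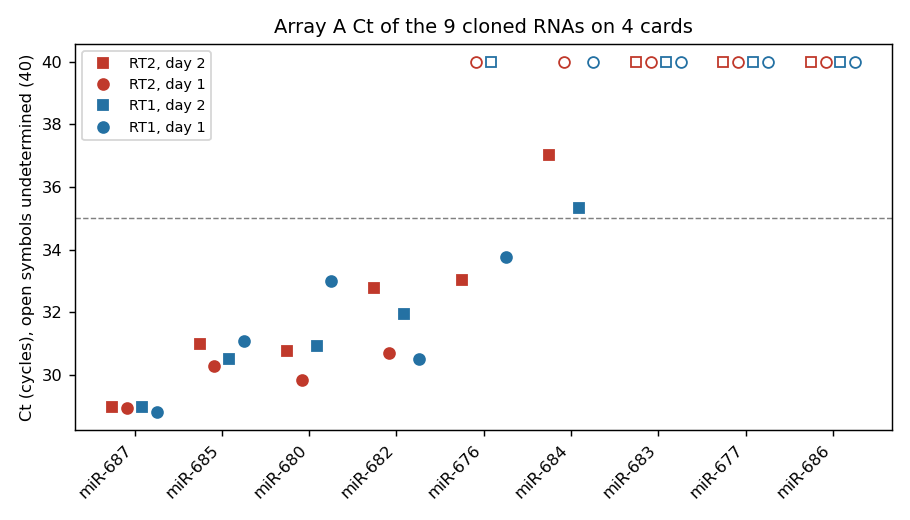
Ct in cycles (vertical axis) of the 9 members on Array A, each on 4 cards. Red symbols are RT2 and blue symbols RT1, squares day 2 and circles day 1, open symbols undetermined wells at 40, and the dashed line the limit of 35. miR-687 sits near 29.0 on all cards and miR-680 spans 29.8 to 33.0.

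Between reactions and between days, none of the 4 detectable members passed the test. Between RT2 and RT1, 2.2% of the 182 detectable miRNAs passed (4 in all; 8 at an unadjusted p under 0.05), and between day 2 and day 1, 0% did (8 at an unadjusted p). The smallest p between reactions was that of miR-680, with a ΔCt difference of -1.58 ± 0.96 cycles, lower in RT2 (SE, adjusted p = 0.841, limma). It was -0.43 cycles without the RT1 card of day 1 and -2.72 without the RT1 card of day 2. Between days it was that of miR-682, with a ΔCt of 13.2 and 12.2 on the day 2 cards, against 11.1 and 10.9 on the day 1 cards. Day 2 was higher in both reactions, by 1.67 ± 0.41 cycles (unadjusted p = 0.0193, adjusted p = 0.802, limma). Neither difference passed the adjustment, and the methods' t-test at 0.01 passed no member in either comparison.

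On the microarray miR-709 was again the brightest member and the brightest of all 617 probes. Its signal, after subtraction of background, was 58037 on array 2, against 52112 on array 1. On array 1, 1 of its 5 spots read 26285 and the other 4 between 56542 and 59542, while on array 2 the spots lay between 55973 and 59464. Its spots also held the highest density on each chip, 59765 on array 2 and 59766 on array 1. miR-690 had a signal of 428.7 on array 2, against 1562 on array 1. miR-805 had 967.2 on array 2, against 528 on array 1. After these 3 the members were dim.

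miR-720 had a signal of 91.0 on array 2, against 124 on array 1, although it had the second lowest Ct of the members. miR-689 had 131 on array 2, against 77.9 on array 1. miR-705 had 107 on array 2, against 101 on array 1. Their sequences are shown because both are GC-rich, at 85.7% and 75.0%, and had no assay on a card.
miR-689: cGUCCCCGcucggcggggucc
miR-705: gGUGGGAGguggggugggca
miR-705 lies at chr6:85336341-85336360 on the minus strand within Rab11fip5. miR-699 had 37.4 on array 2, against 90.9 on array 1. miR-685 (46.5 and 46.2), miR-715 (35.8 and 50.5) and miR-702 (35.4 and 35.2, array 2 and array 1) were near the limit of 32. The 10 members detectable on the microarray had a median GC content of 67.5%, and the other 35 members 52.4%. Over all probes these medians were 50% and 45.5%.

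**Figure D4:**
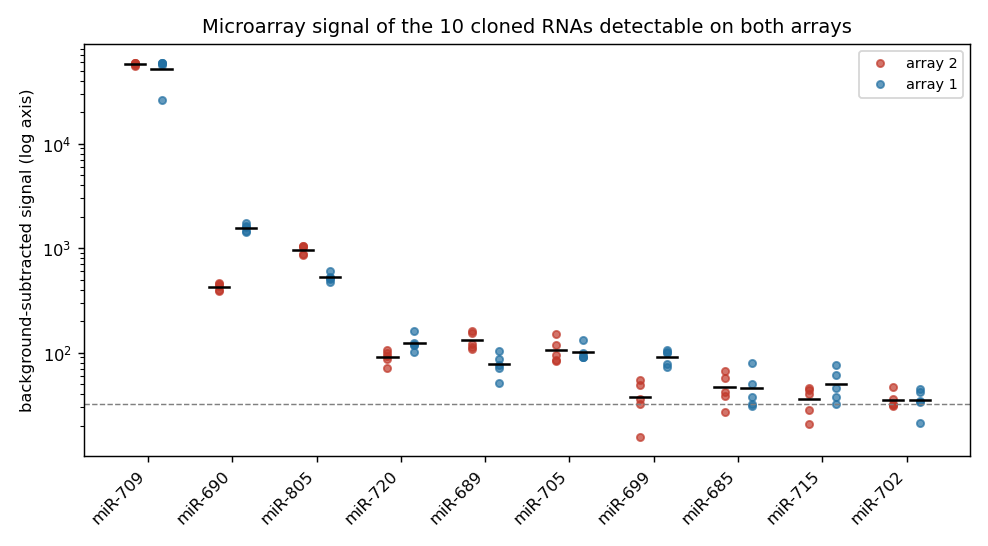
Background-subtracted signal (vertical log axis) of the 5 spots of each of the 10 members detectable on both arrays, array 2 in red left of array 1 in blue. Black lines are means over spots and the dashed line is the limit of 32. The spots of miR-690 and miR-699 lie lower and those of miR-805 and miR-689 higher on array 2 with no overlap, as the spots of 35.8% of 137 detectable probes do not overlap, and 1 spot of miR-709 lies low on array 1.

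Of the remaining members, 31 were under 32 on both arrays (against 443 of 617 probes). Another 4 of the 45 reached 32 on 1 array. Over all 617 probes, 137 reached it on both arrays, and those left beside these and the 443 did so on 1. miR-698 had 48.0 on array 2, against 27.2 on array 1, and miR-691 37.1 on array 2, against 23.8 on array 1. miR-678 had 25.8 on array 2, against 33.8 on array 1, and miR-710 7.58 on array 2, against 38.1 ± 49.3 (SD of 5 spots) on array 1. miR-712 and miR-714, with a GC content of 71.4% and 81.0%, were dim, at 8.68 and 8.25 on array 2 against 14.7 and 14.4 on array 1. miR-693-5p had 1.00 on array 2, the lowest member there and the floor of the deposited signals, against 8.62 on array 1, where miR-707 was lowest at 5.78.

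Both chips held aliquots of the same RNA, and each aliquot had 1 array, so differences were counted past 1.5-fold with no test. After background correction (normexp, offset 50) and loess normalization, 3 of 10 members were past 1.5-fold, against 11.7% of the 137 detectable probes. On the log2 scale, array 2 minus array 1, miR-690 was lower at -1.39 and miR-699 at -0.65, while miR-805 was higher at 1.10. By size of difference they stood at ranks 4, 16 and 8 of the 137. The 14 probes higher on array 2 (10.2% of 137) included miR-805, and the 2 lower ones (1.46% of 137) were miR-690 and miR-699. With quantile normalization 13 probes were higher and 4 lower, without normalization 14 and 5, and in the deposited signals 24 and 9. miR-699 was within 1.5-fold without normalization, at -0.52, and at -1.38 in the deposited signals. For miR-709 the difference was -0.04, and its sign was positive with quantile normalization (0.10) and without normalization (0.22). Its spots stood at the top of the range of both chips, whether they were saturated was not tested, and no direction is read from these values. The 5 probes for 5S ribosomal RNA on the chips were lower on array 2, with ratios of array 2 over array 1 between 0.439 and 0.717. The study's methods name 5S rRNA for their regression normalization, and no setting here was anchored on these probes. Their part in the differences of miR-690 and miR-699 was not tested.

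Detection by Array B without pre-amplification and by the microarray met in 5 of 31 members, against 15 of 181 miRNAs that both measured. The 5 were miR-709, miR-720, miR-699, miR-805 and miR-690. miR-678, miR-692, miR-700, miR-704 and miR-706 were detectable without pre-amplification by Array B only (5 of 31, against 39 of 181). miR-702 and miR-715 were detectable by the microarray and not by Array B without pre-amplification (2 of 31, against 7 of 181). Both reached a Ct under 35 with it. On Array A, miR-685 was detectable by both platforms (1 of 9, against 86 of 333 shared miRNAs). miR-680, miR-682 and miR-687 were detectable by qPCR-array only (3 of 9, against 87 of 333).

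Some members reached the limit of 1 platform and not that of the other, where ranks order values that were not measured and are not given. miR-687 stood at rank 64 of 333 by Ct on Array A, with signals of 7.87 on array 2 and 10.5 on array 1, under 32. miR-706 stood at rank 34 of 181 by Ct on Array B, with signals of 11.6 on array 2 and 8.00 on array 1, and miR-692 at rank 51, also under 32 on both arrays. In the other direction, miR-715 stood at rank 20 of the 181 by signal, with a mean Ct past 35 without pre-amplification. miR-698 and miR-691 were undetermined by Ct on the cards without pre-amplification and reached 32 on 1 array only. miR-709 stood at rank 1 on both.

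Across the 10 members detectable by Array B without pre-amplification, mean ΔCt and mean normalized log2 signal had a Pearson r of -0.75 and a Spearman rho of -0.83, a description over RNAs that share the same cards and chips. Without miR-709 these were -0.68 and -0.77. Over all 54 shared miRNAs detectable on those cards they were -0.59 and -0.42. With pre-amplification the 17 detectable members gave -0.69 and -0.72, and 96 shared miRNAs -0.46 and -0.39. Each set held RNAs that were not detectable on the microarray. Without pre-amplification these were 5 of the 10 members and 39 of the 54 shared miRNAs. With pre-amplification they were 10 of the 17 members and 78 of the 96 shared miRNAs. Both coefficients include their signals, and rho also ranks them, so no order among these RNAs is read from it.

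**Figure D5:**
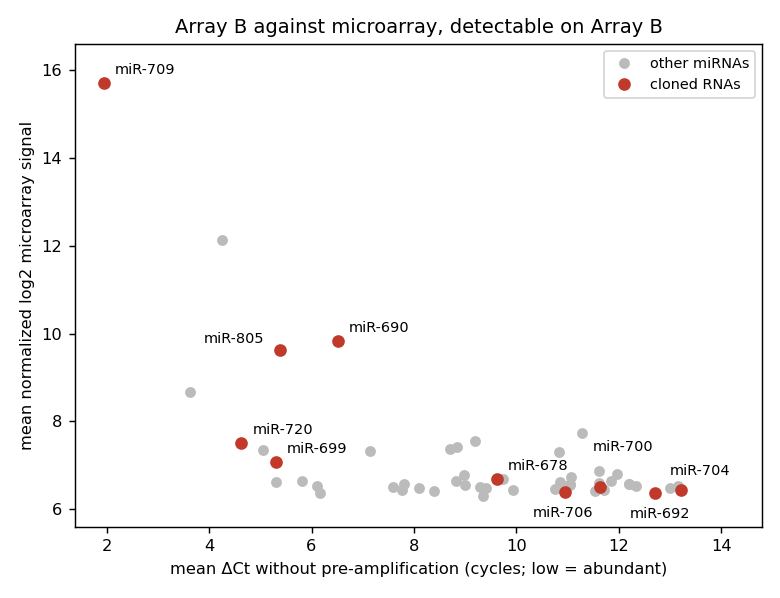
Mean normalized log2 microarray signal over both arrays (vertical axis) against mean ΔCt without pre-amplification (horizontal axis, cycles) for 54 miRNAs detectable on Array B and present on the microarray. Red points are the 10 members and grey points the other miRNAs. miR-709 stands apart at the top left, and miR-805 and miR-690 lie below it. miR-720 (7.51) and miR-699 (7.08) lie lower, and the other members lie between 6.38 and 6.68, near the floor of the signal.

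The RNAs that share a seed with a member were measured beside it. miR-449c had a mean Ct of 27.0 with pre-amplification and 35.05 without, and signals of 14.6 on array 2 and 10.9 on array 1, under the limit of 32. miR-699, at 19.0 with pre-amplification and 27.0 without, differed from miR-449c in Ct by -7.95 cycles with pre-amplification and by -8.04 cycles without it. On Array A, miR-34a had a mean Ct of 30.8 ± 0.29, miR-449a 31.9 ± 0.33, miR-34c 33.2 ± 0.51 and miR-449b 34.5 ± 3.70 (SD, n = 4 cards). The signals of miR-34a were 44.7 on array 2 and 64.2 on array 1, against 37.4 and 90.9 for miR-699. miR-34b-5p, miR-34c, miR-449a and miR-449b were under 32 on both arrays. Of the RNAs with the seed of miR-721, miR-301a had a mean Ct of 28.1 ± 0.14, miR-130a 29.9 ± 0.09, miR-301b 29.8 ± 0.11 and miR-130b 31.4 ± 0.57 (SD, n = 4 cards). miR-721 itself, on Array B, had a mean Ct of 31.0 with pre-amplification and 37.1 without, and signals of 15.6 on array 2 and 18.3 on array 1. Different assays differ in efficiency, so these Ct values are set side by side without a test.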

How the data were processed

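Aliquots of 1 C2C12 RNA sample were measured on 4 Array A cards, 4 Array B cards and 2 microarrays, grouped from the sample titles. The authors deposited cycle thresholds (Ct, in PCR cycles, with undetermined wells at 40) per card, called with SDS software, and for the arrays a scanner intensity and a background-subtracted intensity per spot, from which a median background of 303 on array 2 and 227 on array 1 had been removed. The array's target sequences were matched by name to RefSeq (GRCm38.p6). The members and lists were chosen with earlier results of these data known.

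ΔCt was Ct minus MammU6, with undetermined wells kept at 40. The authors' own ΔCt values differed from this subtraction by up to 3.223 cycles, and the cause was not tested. The subtracted values were tested across all detectable miRNAs with limma 3.58.1 in R 4.3.3, Benjamini-Hochberg at 0.05, without a replicate block. Day and reaction came from the labels, and the Array B card number from the study's scheme. Deviations of same-numbered cards correlated at 0.03 (reactions), 0.32 (days) and -0.01 (Array B). Scanner intensities were corrected with normexp (offset 50) and cyclic loess. The limma step was tested on simulated Ct. For the arrays, the number of arrays limits the precision.

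Per-card values are given for the 6 lowest mean Ct on each card, the 8 highest signals, members past a threshold or detectable only with pre-amplification, and the 3 largest rank differences each way. Where no member passed a test, those with the smallest p are named. Further members were added for completeness. Alternatives were the Ct and signal limits, the control subtracted, the filter, the block, the methods' t-test, the array normalization and each card or array left out. Added after seeing the data were miR-709 without its dimmest spot and ranks without miR-709. The sequence of miR-694 is not printed here.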

Additional observations from a re-analysis of the deposited data

How the results depend on the processing

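All replicates are technical, an undetermined well at 40 is a bound and not a level, and most members' signals lay under the limit of 32. With a mean Ct limit of 30 in place of 35, 1 member was detectable on Array A, 11 on Array B with pre-amplification and 5 without it. With a microarray limit of 100 or 500 in place of 32, 4 and 2 were, against 43 of 617 probes at 500. Shares over all assays or probes at the limits of 30 and 100 were not counted, so those counts describe the setting only. At the limits of 35 and 32, leaving out a card or an array moved no count by more than 1.5 times. Of the 10 members tested on pre-amplification, 4 passed in the reported fit, 10 in raw Ct, where all 60 miRNAs passed and were lower with pre-amplification (miR-678 by -6.57 cycles, miR-692 by -4.91 and miR-704 by -5.91), 7 with the other endogenous controls (26 of all 60 miRNAs, against 15), 1 by the methods' t-test at 0.01 and 0 after its adjustment (3 and 2 of all 60), and 0 with the replicate block. With miRNAs detectable after pre-amplification, 109 in all, 4 of 17 members passed, against 17 of the 109: miR-692 and miR-704 again, and miR-694 and miR-701, whose wells without pre-amplification were past 35 or undetermined. Leaving out a card gave between 2 and 5 members, with between 8 and 32 of all miRNAs tested. No Array A member passed under any alternative, the replicate block included (0 members between reactions and 0 between days). Signs there were unstable: for miR-682 between reactions, leaving out a card gave -0.46 to 1.62 cycles, for miR-680 between days -2.27 to 0.94 (between reactions -2.72 to -0.43, all negative) and for miR-685 between days -0.45 to 0.38, with 0.048 in raw Ct, and for miR-687 between reactions the other controls gave -0.052. On the microarray, between 2 and 4 of the 10 detectable members were past 1.5-fold, with between 16 and 33 of the 137 detectable probes. Over all 617 probes, 3 members and 18 probes were. The methods' t-test across spots passed 4 members and 41 of the 137 probes, but spots of 1 chip are not replicates of an aliquot. The correlation of ΔCt and signal was -0.75 as reported, -0.83 by ranks, -0.85 with deposited signals, -0.68 without miR-709 (-0.77 by ranks) and, leaving out a card or array, between -0.76 and -0.74. For miR-709, the deposited means differed by 0.16 on the log2 scale with all spots, array 2 minus array 1, and by -0.02 without its dimmest spot on array 1. The cause of these changes was not tested.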
